A study of Rattus norvegicus with 44 samples.

Results

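At postnatal day (PND) 5, kidney cortex RNA of 4 male rats labelled homozygous (Homo) at Xdh was compared with that of 3 males labelled wild type (WT). The comparison used 7 of the 44 libraries of a series on kidney maturation in which WT, heterozygous (Het) and Homo rats were sampled at PND0, PND5, PND15 and PND21. Genes were kept where the level was at least 1 FPKM (fragments scaled by gene length and library size) in 3 or more of the 7 libraries, which left 14118 of 32545 genes. Of these, 13014 reached 1 FPKM in all 7 libraries, 32 passed through Homo libraries alone and 6 through WT libraries alone. The 280 genes just inside that limit had a median mean level of 0.984 FPKM and the 382 just outside had 0.806 FPKM. The sources used here give neither the allele nor the strain or litters. Whole litters were collected, so animals of a group may be littermates, and p-values measure only the spread between these animals. The animals were untreated as far as the labels say, and 4 Het rats of PND5 and the Homo and WT rats of later ages served as further reference groups.

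Xdh encodes xanthine dehydrogenase, a molybdenum-dependent flavoenzyme that turns hypoxanthine into xanthine and xanthine into urate, the last steps of purine breakdown shared by rats and people. A form of the same protein passes electrons to oxygen and makes superoxide and hydrogen peroxide. In the rat the kidney goes on forming nephrons for about the first week after birth, so a PND5 cortex holds progenitors, growing tubules and functioning nephrons side by side.

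The libraries were alike in depth and quality measures. WT libraries held 12751227 to 14562480 counted reads and Homo libraries 14061608 to 19751354. Mitochondrial genes took 6.33% to 8.04% of reads in WT and 6.24% to 7.28% in Homo. In two-sided exact permutation tests, reads counted, summed FPKM, mitochondrial share and number of genes at 1 FPKM gave p between 0.3429 and 0.8571 (adjusted p = 0.8571 for each of 4). Log2 levels correlated across genes, which are not independent replicates, at 0.9788 to 0.9842 within groups and 0.9797 to 0.9839 between them. Markers of the labelled tissue were abundant. Slc34a1, the phosphate transporter of the proximal tubule, stood at 628 ± 28.1 FPKM (SD, n = 3) in WT, Umod, the uromodulin of the thick ascending limb, at 398 ± 20.9 FPKM, and Tcf21, a transcription factor of podocytes, at 237 ± 6.96 FPKM. Fat tissue markers differed several-fold between animals of the same genotype, as set out with the gene lists below.

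At PND5, Xdh was the gene with a known product whose level changed with genotype, and the rest of the cortex transcriptome showed few differences. Xdh fell in Homo, and 3 genes with no standard symbol rose (LOC100361913 and AC120310.2, annotated as protein coding, and the lincRNA AABR07054564.1). With limma on log2(FPKM + 1) and a Benjamini-Hochberg adjusted p under 0.05 over all 14118 genes, 4 genes were called, which is 0.0283% of those tested. The 3 higher in Homo are 0.0212% and the single lower gene is 0.00708%. Of the 3, LOC100361913 and AABR07054564.1 passed the filter through Homo libraries alone. An unadjusted p under 0.05 was reached by 308 genes, or 2.18%. Over all genes the median difference, Homo minus WT, was -0.00043 log2 units and the middle 50% ran from -0.061 to 0.058. The median standard error was 0.0986, and for 13480 genes (95.5%) the 95% interval of the difference lay wholly within 1 log2 unit of zero. Differences larger than 1 log2 unit in size were seen for 61 genes. In 191 genes (1.35%) every Homo library lay above every WT library, and in 235 (1.66%) every one lay below. With the spread estimated from all 11 PND5 libraries, Xdh alone was called, of 14496 genes (320 at an unadjusted p under 0.05 by limma). With all 44 libraries no gene was called, of 16283 (209 at an unadjusted p under 0.05 by limma). Het against WT at PND5 gave 0 called genes with limma in the 11 libraries, with 333 at an unadjusted p under 0.05.

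Xdh itself (ENSRNOG00000007081, chromosome 6, 25149235 to 25211494 on the minus strand; the sources used here name no build) was tested first, since it checks the labels. The WT libraries held 4.36, 4.69 and 3.48 FPKM and the Homo libraries 0.790, 1.09, 0.316 and 0.473 FPKM. The groups did not overlap, and the Homo mean of 0.667 ± 0.344 FPKM (SD, n = 4) was 16.0% of the WT mean of 4.18 ± 0.627 FPKM (SD, n = 3). Over pairs of animals that share ranged from 6.74% to 31.3%. In reads the Homo libraries held 23 to 106 on Xdh and the WT libraries 249 to 326, so Xdh transcripts were reduced and not missing. On the log2(FPKM + 1) scale, which understates changes of low genes, Xdh fell by 1.65 ± 0.18 (SE; 95% interval -2.05 to -1.25; limma adjusted p = 0.0277, and 0.0212 in the 11 libraries). The same difference had an adjusted p of 1 in limma when all 44 libraries set the spread. A two-sided exact permutation test gave p = 0.0286, the smallest that 35 splits allow.

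Het animals lay between the other genotypes. Their Xdh levels were 3.59, 2.99, 3.30 and 1.84 FPKM, a mean of 70.1% of WT, and 1 of the 4 overlapped the WT range. Homo differed from Het in an exact permutation test (p = 0.0286), while Het against WT did not pass (p = 0.1143). The Xdh difference was -1.51 among animals numbered 100 and above in their titles and -1.69 among those below 100. The second value rests on 1 WT library, and the numbers have no stated meaning. Leaving out Homo replicate 1 or 4, or any WT library, took the adjusted p of Xdh above 0.05 (highest 0.21), with differences of -1.77 to -1.54 over all 7 omissions.

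**Figure D1:**
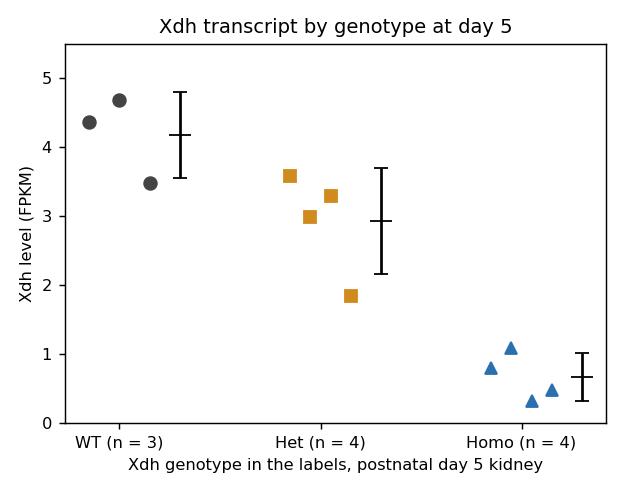
Level of Xdh (FPKM, vertical axis) in each PND5 library by labelled genotype. Points are animals and the bar beside them is the mean with its SD. The 4 Homo animals lie between 0.316 and 1.09 FPKM, below all Het animals (1.84 to 3.59) and all WT animals (3.48 to 4.69).

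The share of Xdh left in Homo was also measured at later ages. Mean Homo levels were 16.0% of WT at PND5, 35.4% at PND15 (5.58 against 15.7 FPKM) and 66.3% at PND21 (16.0 against 24.2 FPKM). WT Xdh was itself lowest of these at PND5. Tested as a change in the log2 difference from PND5, neither PND15 (0.24 ± 0.83 SE, limma adjusted p = 0.933) nor PND21 (1.08 ± 0.89 SE, limma adjusted p = 0.44) passed. Both tests took their spread from all 44 libraries, including PND0 libraries in which Xdh ran from 0.649 to 26.8 FPKM. With standard errors that large they cannot tell a changed share from an unchanged one. At PND0, 2 Homo libraries held 11.7 and 22.5 FPKM, above every WT library there (1.60 to 3.78). The other 2 held 0.727 and 0.649 FPKM, below every WT library, and a Het library held 26.8 FPKM. Xdh goes against the labels in part of the PND0 libraries, so that age enters no genotype comparison here. Its libraries still help to set the spread where 44 libraries are named.

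Genes close to Xdh on chromosome 6 did not share its fall. Of 73 genes in the table whose start lies within 2 Mb of that of Xdh, 40 besides Xdh were tested, and 0 were called by limma, 0 had an unadjusted p under 0.05 and in 0 did the groups separate. Their differences ran from -0.16 to 0.25 log2 units with a median of -0.01, and for all 40 the 95% interval lay within 1 log2 unit. The most abundant were Ost4, a subunit of the oligosaccharyl transferase, at 134 ± 13.1 FPKM in WT (SD, n = 3) and 137 ± 15.6 in Homo (SD, n = 4), Mrpl33, a mitochondrial ribosomal protein, at 137 ± 17.6 and 136 ± 22.9 FPKM, and Lbh at 120 ± 7.58 and 125 ± 3.86 FPKM.

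**Figure D2:**
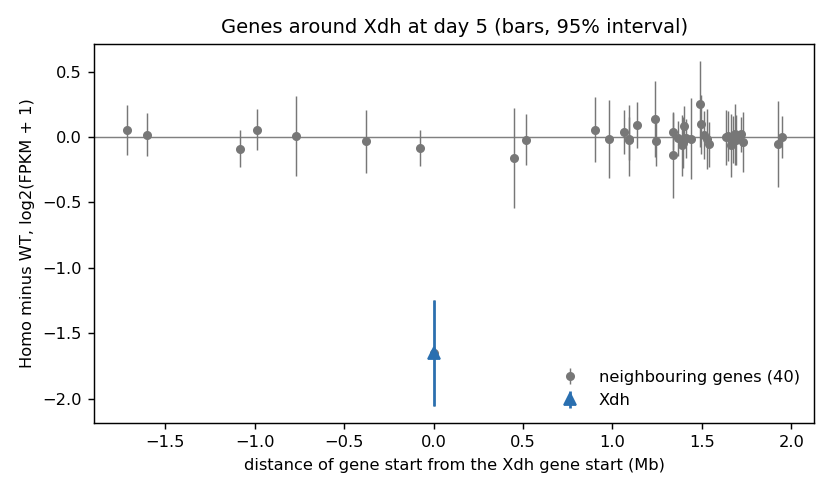
Homo minus WT difference on the log2(FPKM + 1) scale (vertical axis) against distance in Mb from the Xdh gene start (horizontal axis) at PND5. Bars are 95% intervals. The 40 neighbouring genes lie between -0.16 and 0.25 while Xdh lies at -1.65.

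The other called genes have no standard symbol and lie outside the naming rule, so they are named after their values were seen. LOC100361913 (ENSRNOG00000020628, chromosome 1, 87190381 to 87191588, minus strand) held 0.0818, 0 and 0.0854 FPKM in WT and 3.01, 5.28, 4.96 and 5.86 FPKM in Homo. These are 2 reads summed over the WT libraries against 252 over the Homo libraries, a ratio of 82.6 with a 95% interval of 22.6 to 686 that covers counting error only. Its log2 difference was 2.42 ± 0.18 (SE, limma adjusted p = 0.0028). LOC100361913 reached 1 FPKM in 4 Homo and 0 WT libraries, so it passed the filter only through the group where it was high. It was called with each of the 7 libraries left out, but those fits kept the filter set on all 7. They are therefore no independent support. The gene overlaps Yif1b, a membrane trafficking gene on the opposite strand, by 805 bases. Yif1b was at 10.7, 8.10 and 13.2 FPKM in WT and 2.19, 2.01, 7.59 and 1.95 FPKM in Homo, a difference of -1.54 ± 0.42 (SE) that was not called. The sources used here do not say whether counting used strand, so reads from the shared stretch cannot be told apart.

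AC120310.2 (chromosome 17, 14541949 to 14557792) was at 0.762, 0.690 and 1.77 FPKM in WT and 4.30, 5.59, 5.17 and 6.41 FPKM in Homo. The log2 difference was 1.65 ± 0.19 (SE; limma adjusted p = 0.0277). AABR07054564.1, a lincRNA of 132 bases on chromosome 3 (160964878 to 160973026), had 0 reads in each WT library and 3 to 5 reads in each Homo library. This lincRNA also passed the filter through Homo libraries alone. Against a floor of 3 reads over the WT group it was at least 3.71-fold higher in Homo, and limma gave 1.54 ± 0.18 (SE; adjusted p = 0.0277), a value that depends on the added 1 FPKM. In both genes the Homo and WT libraries separated at PND5, but with single libraries omitted AC120310.2 was called only without WT replicate 3 and AABR07054564.1 in none of the 7 fits (limma adjusted p up to 0.21).

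In the other groups these 3 transcripts varied between animals, and at PND15 and PND21 Homo and WT overlapped in each of them. LOC100361913 ranged from 0.444 to 7.30 FPKM among the 4 Het animals of PND5 and from 0 to 8.69 FPKM over the 37 other libraries. Of the 7 WT libraries of PND15 and PND21, 6 reached the lowest PND5 Homo level of LOC100361913, 1 that of AC120310.2 and 1 that of AABR07054564.1. Of the 7 Homo libraries of those ages, 1, 2 and 1 lay at or below the highest PND5 WT level of the same genes. The mean of LOC100361913 was lower in Homo than in WT at both ages, opposite to PND5. It was 0.99 against 4.5 FPKM at PND15 and 3.49 against 6.69 FPKM at PND21. AC120310.2 stayed higher in Homo on average, at 3.6 against 2.51 and 7.95 against 3.86 FPKM. AABR07054564.1 was at 0.647 against 0.634 and 0.707 against 0.973 FPKM. In the fit to the 11 PND5 libraries LOC100361913 and AC120310.2 had a limma adjusted p of 1, and AABR07054564.1 one of 0.0598.

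**Figure D3:**
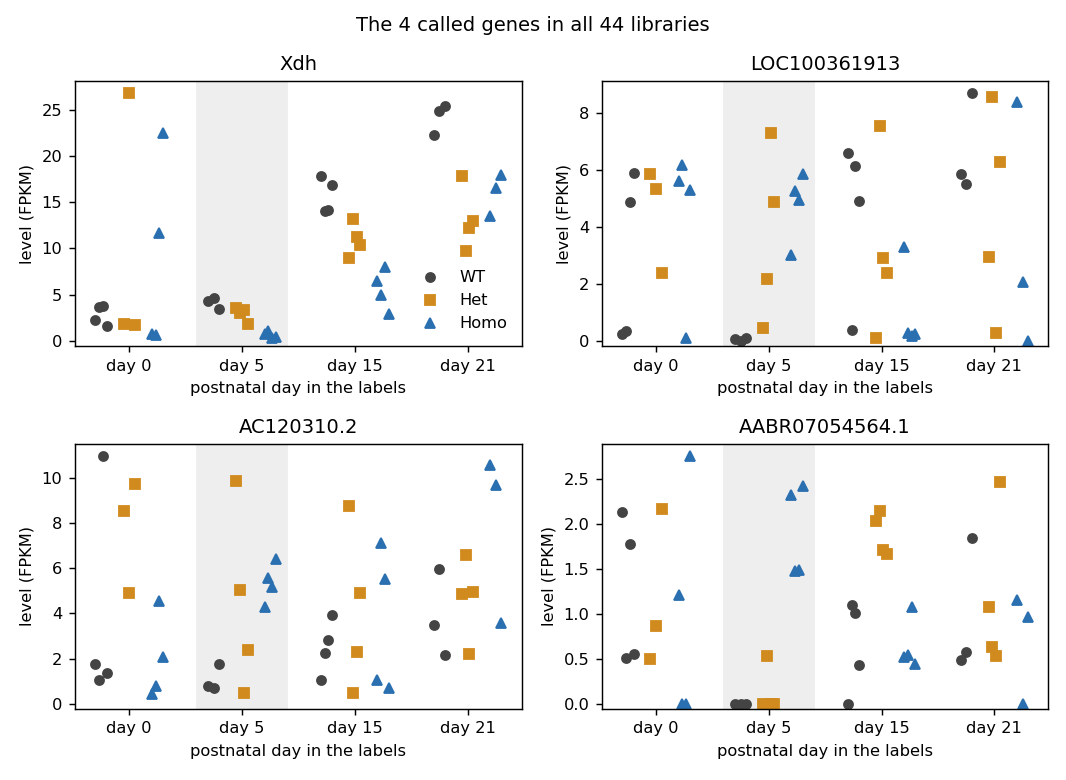
Level (FPKM, vertical axis) of the 4 called genes in every library, by postnatal day and genotype; PND5 is shaded. Homo and WT separate in all 4 panels at PND5, whereas the levels of the 3 transcripts besides Xdh overlap between Homo and WT at PND15 and PND21, with LOC100361913 between 0 and 8.69 FPKM over the other libraries.

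Gene lists were written from general knowledge for purine metabolism, kidney segments, development, injury, immunity, stress and tissues beside the cortex. The lists were chosen with earlier results of these data known. Of 691 list genes tested, 1 was called (Xdh) and 16 (2.32%) had an unadjusted p under 0.05, close to the 2.18% over all genes. In 4 list genes every Homo library lay above every WT library (0.579%) and in 6 below (0.868%), against 1.35% and 1.66% over all genes. Of 42 lists, the neighbours of Xdh included, 40 had a median difference within 0.1 log2 units of zero. The exceptions were fat tissue (-0.75) and osmotic response and inner medulla (0.14, with a median of -0.03 once WT replicate 3 was left out).

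**Figure D4:**
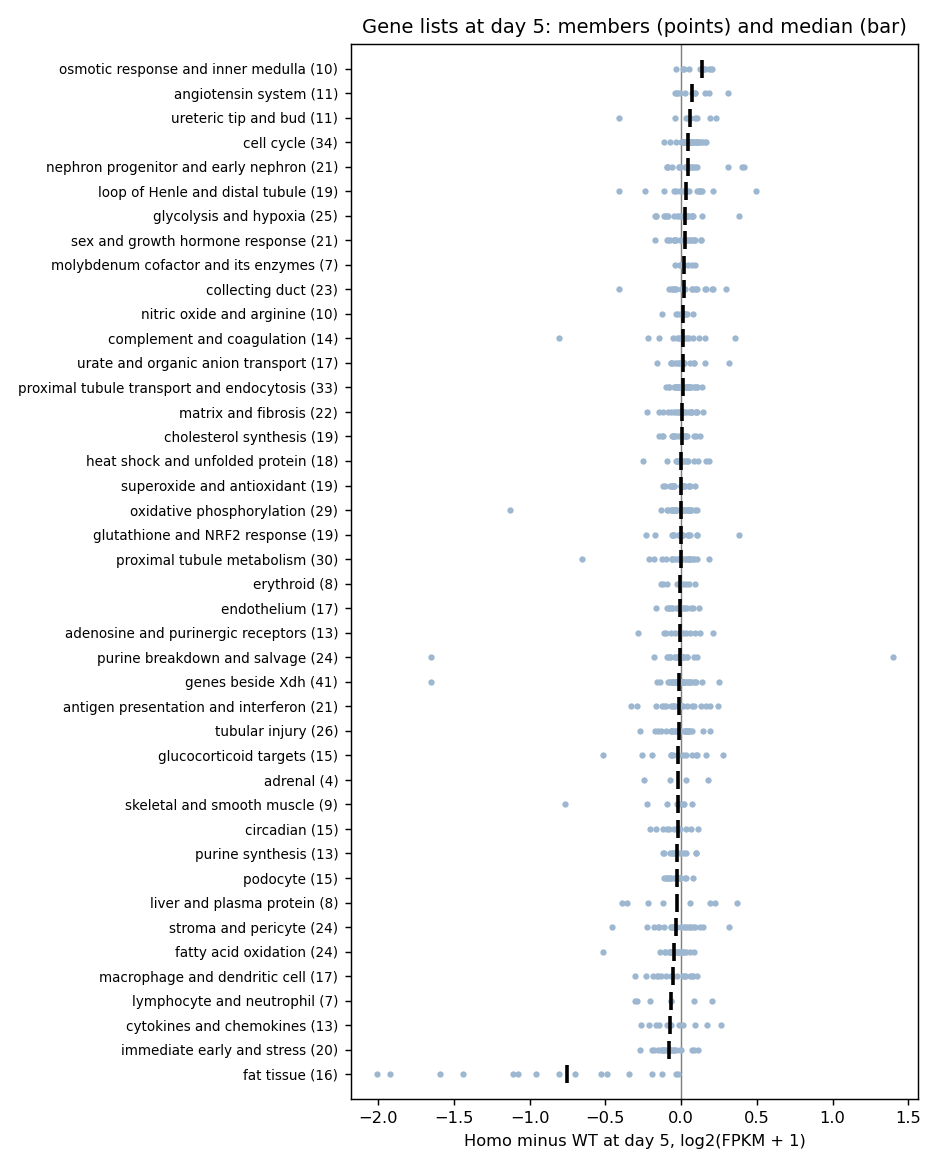
Homo minus WT at PND5 on the log2(FPKM + 1) scale (horizontal axis) for the tested members of each list; points are genes and the bar is the list median, with the number tested in brackets. Most medians lie within 0.1 of zero, Xdh is the low point of the purine breakdown list at -1.65, and the fat tissue list is centred at -0.75.

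Of the enzymes that make or spare the substrates of xanthine dehydrogenase, none besides Xdh was called. The purine breakdown and salvage list had 24 tested members with a median of -0.01. Among the breakdown enzymes, Pnp, purine nucleoside phosphorylase, which releases hypoxanthine and guanine, was at 84.1, 87.4 and 82.6 FPKM in WT and 86.9, 85.7, 87.5 and 79.4 FPKM in Homo. Ada, adenosine deaminase, was at 18.0, 20.2 and 22.4 against 17.8, 18.7, 22.9 and 21.4 FPKM. The groups overlapped in both genes.

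In the salvage branch Aprt, adenine phosphoribosyltransferase, was at 233 ± 17.9 FPKM in WT and 219 ± 20.1 in Homo, and Adk, adenosine kinase, differed by 0.01 ± 0.08 (SE). Hprt1 encodes the phosphoribosyltransferase that returns hypoxanthine and guanine to the nucleotide pool. The tested entry of that symbol varied between animals, at 0.194, 3.27 and 0.505 FPKM in WT and 0.844, 18.4, 0.398 and 13.6 FPKM in Homo. Its log2 difference of 1.40 had a standard error of 1.20, so no direction can be read from it. A second table entry of the same symbol was not tested, with a highest level of 6.04 FPKM, and how reads were shared between the entries is not known. The untested members also included Uox, urate oxidase, at no more than 0.0396 FPKM, and Gda, guanine deaminase, at no more than 0.842 FPKM.

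The remaining members stayed close to their WT levels. Nucleotidases that release nucleosides from nucleotides differed by -0.09 ± 0.15 (SE, Nt5c), -0.03 ± 0.13 (Nt5m), -0.02 ± 0.09 (Nt5c3b), -0.01 ± 0.10 (Nt5c3a), -0.01 ± 0.12 (Nt5e) and 0.09 ± 0.09 (Nt5c2) log2 units. The adenylate kinases Ak1, Ak3 and Ak4 differed by -0.07, -0.04 and 0.04. The AMP deaminases Ampd2 and Ampd3 differed by 0.04 and 0.10, the GMP reductases Gmpr and Gmpr2 by -0.01 each, and Itpa, Dguok and Dck by -0.07, -0.05 and 0.02. For de novo purine synthesis 13 genes were tested with a median of -0.03, and 0 were called. Prps2, a phosphoribosylpyrophosphate synthetase, was higher in every Homo library than in every WT library, at 20.9, 21.9 and 22.4 against 22.7, 24.4, 23.5 and 22.6 FPKM, but its difference of 0.10 ± 0.06 (SE) did not pass the test.

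Xanthine dehydrogenase needs the molybdenum cofactor, which a short pathway builds and a few other enzymes also carry. None of the 7 tested genes of that list was called, and the median was 0.02. Of the cofactor's makers, Mocs1 differed by -0.01, Mocs2 by -0.04, Mocs3 by 0.04 and Gphn, gephyrin, by 0.09 log2 units, the largest of the list in size. Among the enzymes that carry it, Suox, sulfite oxidase, was at 26.7 ± 1.38 FPKM in WT and 27.3 ± 3.84 in Homo, and the amidoxime reducers Marc1 and Marc2 differed by -0.01 and 0.07. Aox1, the aldehyde oxidase most closely related to xanthine dehydrogenase, was low in all animals, at 1.26, 1.08 and 0.847 FPKM in WT and 1.42, 0.737, 0.652 and 0.551 FPKM in Homo (-0.18 ± 0.19 SE).

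Transporters that move urate and other organic anions across the proximal tubule showed no called difference among 17 tested genes, with a median of 0.01. Slc22a12, the apical urate exchanger URAT1, was at 46.6, 47.4 and 47.2 FPKM in WT and 45.0, 56.7, 41.9 and 48.5 FPKM in Homo, so the WT values lay inside the Homo range. The basolateral organic anion exchangers Slc22a6 and Slc22a8 stood at 126 ± 7.01 and 184 ± 9.43 FPKM in WT and 135 ± 23.4 and 189 ± 35.1 FPKM in Homo. Homo replicate 3 was the lowest of the 7 libraries in Slc22a6, Slc22a8 and Slc22a12, and Homo replicate 2 the highest. Abcg2, an apical urate exporter, differed by 0.06 ± 0.11 (SE), Abcc4 by 0.02 and Abcc2 by 0.16, while the urate transporter Slc2a9 differed by -0.16 ± 0.12 and its relative Slc2a6 by -0.07. Slc22a13, another organic anion exchanger, had the largest difference of the list, 0.32 ± 0.14 (SE), at 5.09, 3.26 and 4.38 FPKM in WT and 5.08, 6.18, 4.58 and 6.20 FPKM in Homo, with overlap. The phosphate and urate carriers Slc17a1, Slc17a3 and Slc17a4 (-0.01, -0.03 and 0.09), the lactate and anion carriers Slc5a8, Slc5a12 and Slc16a9 (-0.07, -0.04 and -0.06), Slco1a6 (-0.01) and the scaffold Pdzk1 (0.01) completed it.

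Genes that handle oxygen radicals and oxidants were at similar levels in both genotypes. In the superoxide and antioxidant list 0 of 19 were called and the median was zero to 2 decimals; Gpx3, the plasma glutathione peroxidase made in the proximal tubule, stood at 3473 ± 384 FPKM in WT and 3345 ± 682 in Homo. Rac2, a GTPase of the phagocyte oxidase, was lower in every Homo library than in every WT library with a difference of -0.11 ± 0.08 (SE) that did not pass. In the glutathione and NRF2 list 0 of 19 were called. Srxn1, sulfiredoxin, an NRF2 target that repairs peroxiredoxins, was at 1.91, 2.43 and 2.99 FPKM in WT and 3.28, 3.00, 3.75 and 3.86 FPKM in Homo. The Srxn1 groups did not overlap and the difference was 0.38 ± 0.13 (SE), short of the adjusted threshold. Of other NRF2 targets, Hmox1, heme oxygenase, differed by -0.23 ± 0.25 (SE) and Nqo1 by 0.10 ± 0.11.

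Nephron segments and stages of nephron formation also kept near WT levels. The lists of podocyte, proximal tubule transport, proximal tubule metabolism, loop of Henle and distal tubule, and collecting duct genes had 15, 33, 30, 19 and 23 tested members and medians of -0.03, 0.01, -0.004, 0.03 and 0.02, with 0 called in each. In the nephron progenitor list (21 tested, median 0.05) Six2, the transcription factor that keeps progenitors undifferentiated, was low at this stage, at 0.432, 0.558 and 1.0 FPKM in WT and 0.557, 0.700, 1.92 and 1.99 FPKM in Homo. The ureteric tip list (11 tested) and the cell cycle list (34 tested) had medians of 0.06 and 0.05. Calb1, calbindin of the distal and connecting tubule, varied between animals in both groups, from 118 to 247 FPKM in WT and from 93.0 to 251 FPKM in Homo. Egf, made by the thick ascending limb and distal tubule as it matures, had the largest difference of its list, 0.50 ± 0.22 (SE), at 5.22, 2.94 and 2.93 FPKM in WT and 7.25, 4.88, 3.98 and 6.23 FPKM in Homo. WT replicate 1 lay above 2 of the Homo animals.

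Tubular injury genes, which mark damaged epithelium, did not separate the genotypes at PND5. The list was written with later-age results of these data known. Of its 26 tested members 0 were called by limma, 0 had an unadjusted p under 0.05, and differences ran from -0.27 (Atf3) to 0.19 (Fgb) with a median of -0.02. Lcn2, the lipocalin NGAL shed by injured tubules, was at 5.73, 5.33 and 6.35 FPKM in WT and 5.41, 7.09, 6.99 and 4.55 FPKM in Homo. Clu, the secreted chaperone clusterin, was at 56.7, 58.2 and 61.0 against 57.0, 69.7, 44.6 and 64.1 FPKM, and Spp1, osteopontin, at 316 ± 32.1 against 326 ± 37.6 FPKM. In each of these genes the WT values lay inside the Homo range or overlapped it. Havcr1, the injury receptor KIM-1, failed the filter at PND5, at no more than 0.913 FPKM in any of the 7 libraries, as did Mmp7 at no more than 0.229 FPKM.

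Immune and stromal genes likewise held no call. The macrophage and dendritic cell list had 17 tested members, 0 called and a median of -0.06, with summed levels of 124 to 148 FPKM in WT and 115 to 149 in Homo. Adgre1, the F4/80 antigen, was at 3.25, 3.67 and 2.50 FPKM in WT and 3.73, 3.23, 3.18 and 2.63 FPKM in Homo. Cx3cr1, the fractalkine receptor of resident macrophages, was lower in every Homo than in every WT library (3.33 against 2.52 FPKM on average, -0.31 ± 0.13 SE) without being called. In bulk tissue, fewer cells of a type and less RNA per cell cannot be told apart. The matrix and fibrosis list (22 tested) had a median of 0.008. In the stroma and pericyte list (24 tested, median -0.035) the extremes were Lum, lumican, at -0.46 and Tnc, tenascin C, at 0.31 ± 0.11 (SE). The groups overlapped in both genes. Other list members whose groups did not overlap were Adora2b (-0.28 ± 0.09 SE), an adenosine receptor, Asns (-0.25 ± 0.08), asparagine synthetase, Pdk1 (-0.17 ± 0.07), a pyruvate dehydrogenase kinase, Dcn (0.12 ± 0.08), decorin, and Ccl2 (0.26 ± 0.15), a monocyte attractant. None of these was called.

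Fat tissue markers were the list with the largest median difference, and their levels followed single animals. All 16 tested members were lower on average in Homo (median -0.75), 0 were called by limma and in 0 did the groups separate. An unadjusted p under 0.05 was reached by 3 of the 16, against 2.18% of all genes: Cfd (-0.81 ± 0.34 SE), Cidec (-0.53 ± 0.22) and Lipe (-0.49 ± 0.20). Summed over the list, WT libraries held 123, 266 and 241 FPKM and Homo libraries 93.8, 75.8, 242 and 76.7 FPKM, so Homo replicate 3 matched WT replicates 2 and 3. Ucp1, the uncoupling protein of brown fat, was at 2.87, 14.3 and 15.2 FPKM in WT and 1.59, 0, 14.8 and 0.107 FPKM in Homo. Adipoq, adiponectin, was at 2.47, 9.74 and 7.0 against 1.48, 0.408, 9.10 and 1.83 FPKM, and Fabp4, the adipocyte fatty acid binding protein, at 38.1, 99.7 and 84.7 against 27.2, 21.1, 85.5 and 19.2 FPKM. In 12 of the 16 genes the other Homo animals lay below all WT animals, and in all 16 Homo replicate 3 reached the WT range. Homo replicate 3 was set apart after these values were seen, and the same share over all genes was not counted. The 12 genes thus cannot be read as a difference between genotypes. Without Homo replicate 3 the list median was -1.07, and without WT replicate 3 it was -0.51. Whether the tissue taken with the cortex differed between animals was not tested. Other tissues beside the cortex showed no such pattern: list medians were -0.005 for erythroid, -0.02 for adrenal, -0.02 for muscle and -0.03 for liver and plasma protein genes.

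Among genes with a symbol, groups that separated and at least 5 FPKM in the higher group, the largest differences that missed the adjusted threshold were small upward and larger downward. Upward, Rnf24, a RING finger gene, was at 5.92, 6.17 and 4.90 FPKM in WT and 9.68, 13.3, 10.5 and 7.0 FPKM in Homo (0.71 ± 0.18 SE). The other 9 ranged from 0.38 (Rnf186) through Ikbkg, the NEMO subunit of the NF-kappaB kinase (0.31), Smlr1, Rnf43, a Wnt receptor ubiquitin ligase (0.27), Slc9a4, a sodium-proton exchanger (0.26), Tmem170b, Fgf9, a growth factor of nephron progenitors (0.24), and Gabpb2 to Gar1 (0.23).

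Downward, Alkbh6 had the largest difference, with 4.44, 7.72 and 3.42 FPKM in WT and 0.199, 1.68, 0.211 and 2.07 FPKM in Homo (-1.68 ± 0.42 SE). Rps19, a protein of the small ribosomal subunit, had the smallest p of these, at 222, 257 and 240 FPKM in WT and 190, 137, 142 and 159 FPKM in Homo (-0.62 ± 0.12 SE; limma adjusted p = 0.777). The others were Yif1b, Gtpbp6 (-1.08), Snx31 (-0.99), Mir1249 (-0.86), Tprkb (-0.85), Gstt2, a glutathione transferase (-0.64), Snai2, a repressor of epithelial genes (-0.33), and Hexim2 (-0.31). Alkbh6, Rps19, Yif1b and LOC100361913 all lie on chromosome 1, with starts at 88766872, 81750928, 87180624 and 87190381. Yif1b and LOC100361913 overlap each other, and Smlr1, of the upward genes, starts at 20856187 on the same chromosome. These positions were compared after the values were seen. The share of all tested genes on chromosome 1 was not counted, so no clustering can be read from them. Mir1249 lies within another gene on the same strand and Gtpbp6 and Tprkb overlap others, so their counts are uncertain. Of 34 genes named for a call, a large difference or a large spread, 8 overlap another gene.

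Some genes differed more between animals of 1 genotype than between genotypes. The 10 genes with the largest spread within groups, at a mean of at least 5 FPKM, switched between low and high levels from animal to animal. Gstm5, a glutathione transferase, was at 1.13, 30.0 and 71.5 FPKM in WT and 81.2, 90.5, 1.43 and 2.08 FPKM in Homo. Timm17b, part of the mitochondrial import channel, was at 17.4, 16.4 and 0.896 against 1.19, 0.848, 37.8 and 0.990 FPKM. Mrpl53, Tma7, 1 of 4 tested entries named Rpl35a, Ebna1bp2, Selenbp1 and the Hprt1 entry already described showed the same kind of pattern, and Ucp1 and Car3 of the fat tissue list completed the 10. None separated the genotypes, and their standard errors were 1.16 to 2.07 log2 units, against a median of 0.0986 over all genes.

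The difference between Homo and WT at PND5 was then set against that at later ages, in 1 limma fit to 44 libraries and 16283 genes. Between PND5 and PND15 the genotype difference changed for 888 genes, 658 (4.04%) more positive and 230 (1.41%) more negative at PND15. Between PND5 and PND21 it changed for 3725 genes, 1935 (11.9%) more positive and 1790 (11%) more negative. With libraries brought to equal summed FPKM (TPM) the splits were 837 and 155 at PND15 and 2850 and 1045 at PND21, since that scaling moved the median of all genes by 0.07 and 0.14 log2 units. On recovered reads (limma-voom) they were 611 and 134, and 2581 and 1099. The PND15 count was 486 without PND5 WT replicate 1.

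The 10 smallest p-values of the PND15 against PND5 test all belonged to genes that were more positive at PND15. A gene low elsewhere could pass the filter over 44 libraries through later Homo libraries, which favours that direction. Of the 10, Mmp7, Il24, Il19, Trh, Lif and Il1rn averaged below 1 FPKM in PND5 Homo and in WT at PND5, PND15 and PND21. Their shared direction is therefore no separate result. Havcr1 was at 0.608 ± 0.263 FPKM in WT (SD, n = 3) and 0.622 ± 0.244 in Homo (SD, n = 4) at PND5, and at 1.21 ± 0.397 and 52.6 ± 29.4 FPKM (SD, n = 4 each) at PND15. The change in its log2 difference was 4.46 ± 0.33 (SE; limma adjusted p = 2.58e-11). Clu was at 58.6 ± 2.17 and 58.8 ± 10.8 FPKM at PND5 and at 58.4 ± 2.07 and 818 ± 578 FPKM at PND15. Lcn2 was at 5.80 ± 0.513 and 6.01 ± 1.24 FPKM at PND5 and at 6.85 ± 1.10 and 153 ± 72.2 FPKM at PND15. Mmp7, a matrix protease, Il24 and Il19, cytokines of the IL-10 family, Trh, thyrotropin-releasing hormone, Socs3, a brake on cytokine signalling, Lif and Il1rn made up the rest, with changes of 4.11, 3.13, 3.85, 2.27, 3.72, 2.11 and 2.30 log2 units.

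Of 33 injury genes tested over all ages, the genotype difference was more positive than at PND5 for 23 at PND15 and for 30 at PND21, and more negative for 0 at either. The list was written with later-age results of these data known, so its counts and medians are no independent test. It includes Havcr1, Mmp7, Clu, Il24, Il19 and Lcn2, named above for their small p-values. The injury list's median difference was -0.01 at PND5, 1.67 at PND15 and 2.83 at PND21. In 23 of the 26 injury genes tested at PND5, the upper end of the 95% interval at PND5 lay below the difference measured at PND15 in this fit. The exceptions were Cdkn1a, Gdf15 and Vcam1. That count leaves out the error of the PND15 value and is not a count of called changes. Krt7, Krt8 and Krt19, for example, are in it but missed the limma test of the change (adjusted p = 0.378, 0.189 and 0.336). Over all 16283 genes 4.04% were more positive and 1.41% more negative at PND15, and 11.9% and 11% at PND21. For macrophage and dendritic cell genes 20 of 23 were more positive at PND15 and 23 at PND21. Proximal tubule transport genes went the other way, with 4 of 33 more negative at PND15 and 23 at PND21 (15 by TPM), and oxidative phosphorylation genes with 0 and 23 of 29 (17 by TPM). The cell cycle list had 0 of 34 called at either age. PND15 and PND21 are set against the same PND5 libraries.

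**Figure D5:**
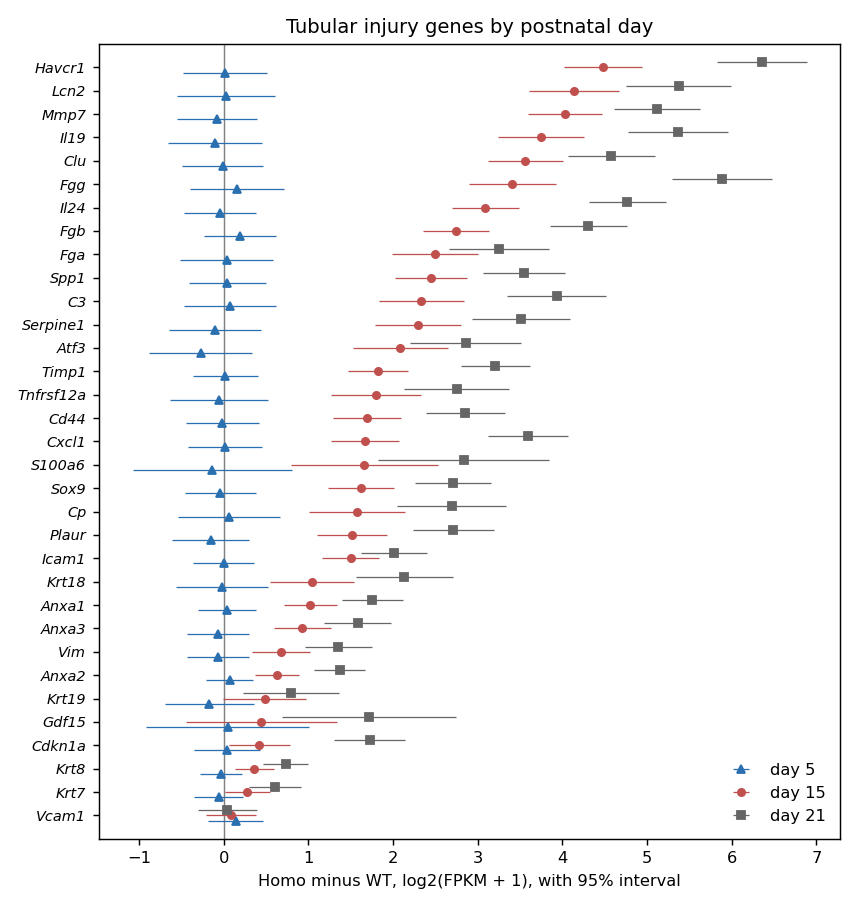
Homo minus WT difference on the log2(FPKM + 1) scale (horizontal axis, bars are 95% intervals from the fit to 44 libraries) for the 33 injury genes at PND5, PND15 and PND21. The PND5 points sit around zero with a median of -0.01, while the medians at PND15 and PND21 are 1.67 and 2.83. The list was written with later-age results of these data known.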

How the data were processed

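The authors deposited their values as FPKM, in 1 table of genes by libraries. Of the tools, the submitters' processing notes list featureCounts 1.5.0-p3, StringTie 1.3.3b, HISAT2 2.0.5 and fastp, with no roles, and the sources used here name no build. Libraries were made from poly-A RNA, per the labels' protocols, and strandedness is not stated. FPKM times gene length and a library size gave whole reads within 0.01 read for 100% of values. The median ratio of each library to the geometric mean library was 0.999996 in all 44, so the deposited FPKM already carried that scaling. Groups follow the labels' age and genotype.

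Differences were tested with limma 3.58.1 (trended, robust empirical Bayes; statmod 1.5.0, R 4.3.3) on log2(FPKM + 1), with Benjamini-Hochberg adjustment over all genes at 1 FPKM or more in 3 libraries; called means an adjusted p under 0.05. Rose, fell and changed are used for called genes. The age tests used 12 group means over 44 libraries. Exact permutation tests were two-sided. Scripts were tested on simulated data. Intervals on reads cover counting error only.

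Members, lists and tests were chosen with earlier results of these data known. Genes were named by rule: Xdh, called genes with a symbol, the 10 largest non-overlapping differences per direction (at least 5 FPKM, unadjusted p under 0.05), members of the purine breakdown, molybdenum and urate lists, the 3 most abundant and the non-overlapping members of other lists, the 10 with the largest spread, and the 10 smallest p of the PND15 test with the injury list. A few markers beyond it (Lcn2, Clu, Adgre1, Six2, Calb1, Egf, Hmox1, Nqo1, Tnc, Lum and fat genes) were chosen after their values were seen. Some genes that the rule takes are left out of the text. Alternatives were a pseudocount of 0.1, other filters, TPM, median-ratio scaling, array weights, voom on reads, 11 or 44 libraries, animal number, and omission of each library.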

Additional observations from a re-analysis of the deposited data

Results flagged for a closer look

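In the 4 Homo libraries of PND5, 6 of 38 values checked had 1 animal far from the others. Chance alone marks about 1 in 20 groups, but no excess can be read from this count: 4 of the 6 are among the 10 genes chosen for their large spread within groups. Homo replicate 3 was that animal in Rnf186 (9.39 FPKM, the others 7.04 to 7.24), Yif1b (7.59, the others 1.95 to 2.19), Timm17b (37.8, the others 0.848 to 1.19), Ucp1 (14.8, the others 0 to 1.59) and Car3 (42.6, the others 1.08 to 4.20). In Tma7 it was Homo replicate 1 (40.8 FPKM, the others 0.990 to 3.16). Without Homo replicate 3, Yif1b passed the limma threshold at PND5 (difference -1.91, adjusted p = 0.0126).

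The genotype difference itself differed between ages in the limma test of the interaction, for 888 genes between PND15 and PND5 and for 3725 between PND21 and PND5. The 10 genes with the smallest p in the first had changes of 4.464 (Havcr1), 4.107 (Mmp7), 3.572 (Clu), 3.135 (Il24), 4.108 (Lcn2), 3.846 (Il19), 2.267 (Trh), 3.724 (Socs3), 2.112 (Lif) and 2.30 (Il1rn) log2 units.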

How the results depend on the processing

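The count of 4 called genes at PND5 was 1 with a pseudocount of 0.1, 1 with no filter, 0 at a mean of at least 5 FPKM (a limma fit in which Xdh was not tested and 176 genes had an unadjusted p under 0.05), 1 with 11 libraries, 0 with 44 libraries and 1 to 3 with each library left out. Xdh kept its direction in every setting that tested it. Its difference of -1.65 (SE 0.18) missed the threshold with a pseudocount of 0.1 (-2.58, limma adjusted p = 0.121), with no filter (-1.65, adjusted p = 0.145) and with 44 libraries (-1.65, adjusted p = 1), and ranged from -1.77 to -1.54 with each library left out. The cause was not tested. For PND15 against PND5, the 888 genes became 479 at a mean of at least 5 FPKM, where fewer genes were tested, 2244 with array weights and 486 to 892 with each PND5 library left out; every PND21 count lay within 1.5 times 3725. No named gene was scored as reversed. For counts and list medians only the size of a move was scored, so reversal was not assessed for them. The median of the osmotic response and inner medulla list changed sign once WT replicate 3 was left out, as given with the gene lists. Over the settings, the named genes other than Xdh kept their side of the threshold in 356 cases, lost it in 25 and gained it in 1. All 25 losses fell on the 3 called genes besides Xdh, the only ones among them with a call to lose. AC120310.2 and AABR07054564.1 lost theirs in most settings that tested them. The 356 cases are mainly uncalled genes that stayed uncalled. List medians moved by more than the spread in 9 cases and by less in 495. No paired analysis was possible because replicate numbers were given in record order and pair no animals. With 3 and 4 animals a group, low genes such as AABR07054564.1 rest on a few reads and the median standard error of a difference was 0.0986 log2 units.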
